A study of Mus musculus with 9 samples.

Results

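The genes described here are 8 genes through which suppressive myeloid cells are known to act, chosen by name from the 23337 genes counted in the CD11b+ bone marrow cells of 9 mice. They are the inducible nitric oxide synthase Nos2, the tryptophan-degrading enzyme Ido1, the checkpoint ligand Cd274 (PD-L1), the secreted factors Il10, Tgfb1 and Vegfa, the receptor chain Il4ra and the transcription factor Stat3. All 8 were present in the counts, 5 of them passed the filter on low counts and were tested, and the other 3 (Nos2, Ido1 and Il10) lay near the counting floor.

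The mice were male C57BL/6 animals aged 3 to 6 weeks with no engineered allele, and each group held 3 of them. PBS mice received the vehicle. Mice of the EnzR EV group received extracellular vesicles from CWR-R1 prostate cancer cells, a human line made resistant to enzalutamide, as 10 µg of EV protein in 100 µl by tail vein on 3 occasions spaced 48 h apart. Mice of the EnzR EV + HDL NP group received the same vesicles and, in alternation with them, 3 doses of HDL NPs, synthetic particles with a gold core, phospholipid and apolipoprotein A-I that bind the HDL receptor SR-B1. The HDL NP dose is 1 µM in the sample labels and 100 µM in the study's methods. No group received HDL NPs alone, and the vesicles were of human origin in a mouse host. Marrow was taken 24 h after the last injection, and CD11b+ cells were enriched before RNA extraction.

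Myeloid-derived suppressor cells are immature monocytic and granulocytic cells, marked in mice by CD11b and Gr-1, that accumulate in tumour-bearing hosts and restrain T cells. Inducible nitric oxide synthase makes nitric oxide from arginine, Ido1 converts tryptophan to kynurenine, PD-L1 engages PD-1 on T cells, and IL-10 and TGF-β act on T cells and on other myeloid cells. STAT3 relays growth factor and interleukin signals that sustain these cells, and the IL-4 receptor α chain is used as a marker of some of them. CD11b+ cells of healthy marrow are mainly neutrophils, their precursors and monocytes, and neither CD11b nor the genes listed here identify a suppressor cell by themselves.

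Libraries held from 2575776 to 18110561 counts. Levels are CPM, counts scaled to a common library size with the TMM factors (TMM CPM), and the floor of 3 counts corresponded to between 0.16 CPM in EnzR EVs replicate 2 and 1.65 CPM in EnzR EVs replicate 1. Itgam, which encodes CD11b, was at 1390 to 2010 CPM, Ptprc at 1090 to 2150 CPM and Lyz2 at 3700 to 10900 CPM in the 9 libraries. The share of counts on Rn45s, which encodes ribosomal RNA, was 20.3% in PBS replicate 1, 42.7% in EnzR EVs replicate 1 and 14.2% in EnzR EVs replicate 3, and at most 2.87% in the other 6 libraries. In bulk RNA, fewer cells of a type and less RNA per cell cannot be told apart.

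Upstream sequence is shown for Cd274, which had the largest fold change of the tested members, and for Vegfa, the only one of the 5 members with a promoter entry that held an interferon response match. The RefSeq promoter table, on GRCm38.p6, held 6 promoters of 5 members (Cd274, Tgfb1, Vegfa, Il4ra and Stat3). A set of 3 letter patterns was searched on both strands in the 300 bases around each start, 250 before it and 50 after it. These were TTCNNNGAA for STAT proteins, which reads the same on both strands, GAAA and GAAA parted by any 2 bases for interferon response elements, and ACGTG for hypoxia response elements, which reads as CACGT on the other strand. The shares of all 32851 promoters in the table holding them were 8.3%, 3.44% and 19.6%. The Cd274 sequence below has none of the searched letters within it, and the capitals in the Vegfa sequence mark the interferon pattern read on the other strand, at positions -142 to -133 from the start.
Cd274, chr19:29367188-29367437, plus strand: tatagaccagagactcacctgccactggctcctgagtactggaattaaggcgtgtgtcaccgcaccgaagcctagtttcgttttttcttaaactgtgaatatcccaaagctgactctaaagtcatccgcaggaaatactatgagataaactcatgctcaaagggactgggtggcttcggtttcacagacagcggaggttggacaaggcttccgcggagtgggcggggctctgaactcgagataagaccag
Vegfa, chr17:46032378-46032627, minus strand: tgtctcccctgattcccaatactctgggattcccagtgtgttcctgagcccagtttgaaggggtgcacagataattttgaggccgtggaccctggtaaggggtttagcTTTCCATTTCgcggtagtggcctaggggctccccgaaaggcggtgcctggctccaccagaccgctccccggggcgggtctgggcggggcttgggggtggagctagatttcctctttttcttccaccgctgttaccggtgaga
The Cd274 window held a CACGT match 39 to 43 bases after the start, beyond the printed stretch. A further Vegfa entry of the promoter table held CACGT at positions -211 to -207 from its start. Its window, 46025114 to 46025413 on chromosome 17, lies inside the gene, which spans 46016993 to 46032369. The promoters of Tgfb1, Il4ra and Stat3 held 0 matches to any of the patterns, and 0 members held the STAT pattern. A match to these letters is a description of the sequence and not a measured binding site.

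Per kilobase of exon, Stat3 had the highest mean level of the members and Nos2 the lowest. Averaged over the 9 libraries, Stat3 stood at 32.7 TMM CPM per kilobase (24.8 to 39.3), Il4ra at 20.6 (17.1 to 25.5), Tgfb1 at 17.4 (11.8 to 23.8) and Vegfa at 13.1 (10 to 18.4). Each of these genes overlapped its neighbour in that order across libraries. Cd274 followed at 3.5 CPM per kilobase (1.12 to 5.32), below the lowest library of the other 4 tested members. The 3 members near the floor were lower still, Il10 at 0.158, Ido1 at 0.13 and Nos2 at 0.0457 CPM per kilobase, and their ranges all began at 0 and overlapped. Lengths are union exon lengths of GENCODE M21 on GRCm38.

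Cd274 encodes PD-L1, which binds PD-1 on T cells and dampens their activation. The gene lies on chromosome 19 from 29367455 to 29388095 on the plus strand (GRCm38). It was at 4.05, 9.32 and 9.78 CPM in the PBS mice, 8.23, 18.2 and 10.6 CPM in the EnzR EV mice, and 19.0, 15.7 and 19.3 CPM in the EnzR EV + HDL NP mice. The value of PBS replicate 1 rests on 23 counts, with an exact 95% Poisson interval of 2.57 to 6.07 CPM. That of EnzR EVs replicate 1 rests on 15 counts, with an interval of 4.61 to 13.6 CPM. All 3 mice given EnzR EVs with HDL NPs lay above all 3 PBS mice, while the EnzR EV mice overlapped both other groups. Against PBS, Cd274 in the EnzR EV + HDL NP group was 2.27-fold higher, a log2 fold change of 1.18 (SE 0.34, 95% interval 0.42 to 1.94), with an edgeR quasi-likelihood p of 0.00579 and a Benjamini-Hochberg adjusted p of 1 over the 12553 genes tested. The two-sided exact permutation test gave p = 0.10, the smallest that 3 against 3 mice allow. By unadjusted p, Cd274 ranked 29 in that comparison. The difference therefore did not pass the threshold, and its adjusted p ranged from 0.0836 to 1 over the alternatives.

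The mean of the EnzR EV group lay between those of the other groups for Cd274. Against PBS its log2 fold change was 0.71 (SE 0.35, 95% interval -0.071 to 1.48, edgeR adjusted p = 0.928), and over fits that each left out 1 library it ranged from 0.31, without EnzR EVs replicate 2, the highest mouse of that group, to 0.90. Cd274 was higher in the EnzR EV mouse than in the PBS mouse of equal number in 3 of 3 cases. That pairing is a hint from the data only, and the share of all tested genes going the same way in every pair was not counted. A fit blocked on the replicate number gave a log2 fold change of 0.69 (edgeR adjusted p = 0.739). Addition of HDL NPs to EnzR EVs gave 0.48 (SE 0.34, 95% interval -0.28 to 1.24, edgeR adjusted p = 0.547). Without EnzR EVs replicate 2 this was 0.87 (edgeR adjusted p = 0.134), and without the 3 libraries rich in Rn45s it was -0.015, with 1 EnzR EV library left. The difference of Cd274 between the EnzR EV + HDL NP and PBS groups was 0.92 (edgeR adjusted p = 0.111) without those 3 libraries, and that between the EnzR EV and PBS groups was 0.93 (edgeR adjusted p = 0.259), so the single EnzR EV library was not between the other groups in that fit. The low value of PBS replicate 1 and the low value of EnzR EVs replicate 1 both came from libraries rich in Rn45s, where the smaller totals and the marker levels given below moved along; their part in the result was not tested.

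**Figure D1:**
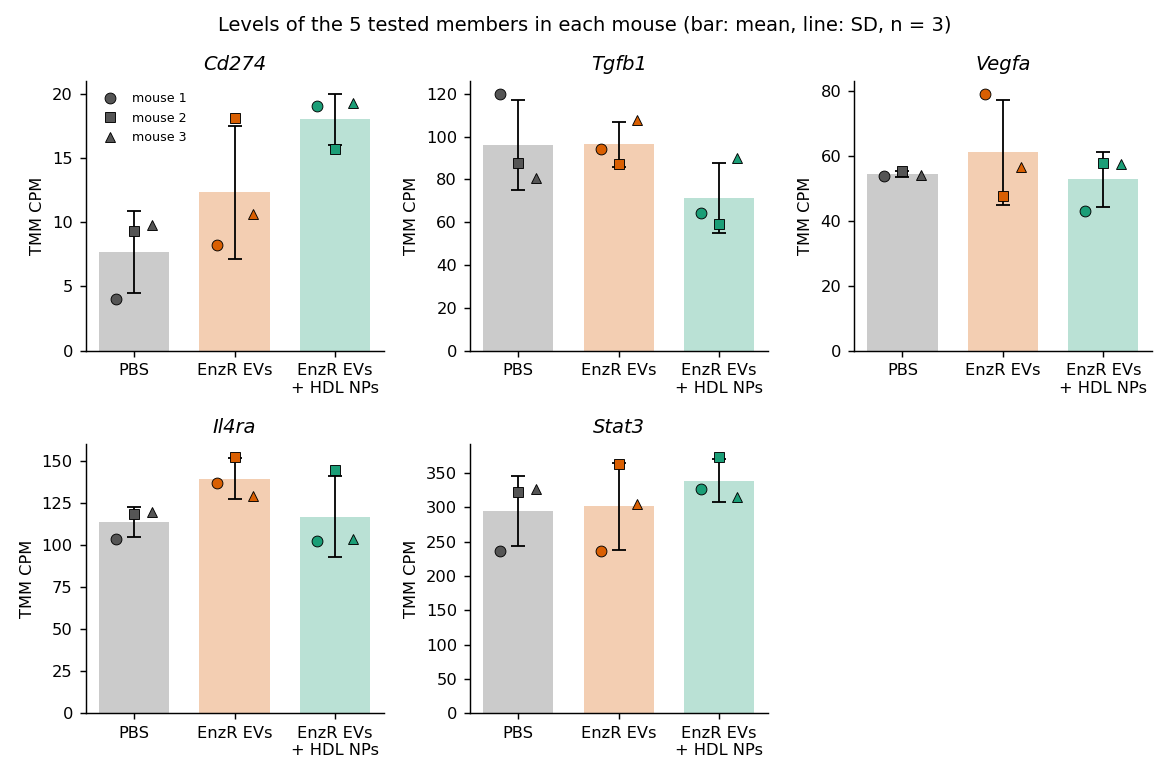
Levels of the 5 tested members in TMM CPM (vertical axes, from 0) in the PBS, EnzR EV and EnzR EV + HDL NP groups. Each marker is 1 mouse, the bar is the group mean and the line is the SD over 3 mice; the EnzR EV + HDL NP mice lie above the PBS mice for Cd274, the EnzR EV mice lie above the PBS mice for Il4ra, and the groups of the other 3 genes overlap.

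Among the tested genes, those whose pattern over the 9 libraries was closest to that of Cd274 were Nlrc5 and Irgm2. Nlrc5 is the transactivator of MHC class I genes, and Irgm2 is an interferon-induced GTPase. The measure was the root mean square difference of log2 CPM after each gene was centred on its own mean, 0.22 for Nlrc5 and 0.23 for Irgm2, against a median of 0.76 over all tested genes. Nlrc5 was at 21.6 to 38.4 CPM in PBS mice, 32.4 to 78.3 CPM in EnzR EV mice and 65.9 to 115 CPM in EnzR EV + HDL NP mice. Irgm2 was at 18.5 to 38.4, 21.9 to 65.6 and 62.7 to 78.5 CPM in the same groups. In all 3 genes PBS replicate 1 was the lowest library, and EnzR EVs replicate 2 was the highest of its group. The points share libraries and scaling, and the likeness is given without a test.

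**Figure D2:**
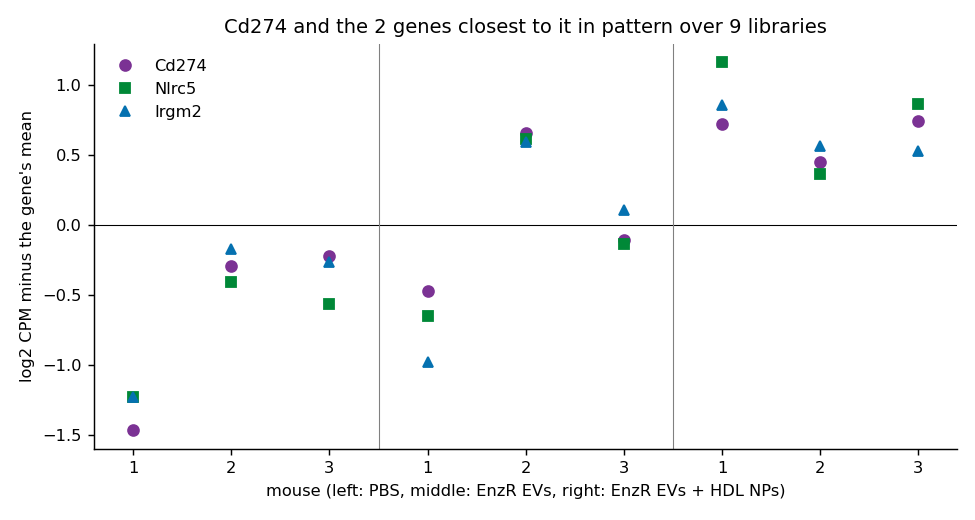
Log2 CPM of Cd274, Nlrc5 and Irgm2 after each gene's mean over the 9 libraries was subtracted (vertical axis), by mouse and group (horizontal axis). The 3 genes are lowest in PBS replicate 1, and in the EnzR EV + HDL NP group all their values are above 0.

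Nos2, Ido1 and Il10, inducible effectors of suppressor cells, were at or near the counting floor in every group. A gene was placed there where at least 5 of the 9 libraries held 10 counts or fewer. Nos2 (chromosome 11, 78920787 to 78960254, plus strand) had 0, 5 and 2 counts in PBS mice, 0, 6 and 3 in EnzR EV mice, and 5, 3 and 4 in EnzR EV + HDL NP mice, 28 in all. Ido1 (chromosome 8, 24584136 to 24597009, minus strand) had 0, 6 and 2 counts, then 0, 5 and 3, then 2, 3 and 11 in the same order of groups, 32 in all. Il10, the anti-inflammatory cytokine (chromosome 1, 131019845 to 131024974, plus strand), had 0, 6 and 5 counts, then 0, 3 and 4, then 4, 4 and 2, 28 in all. The zeros of all 3 genes came from the same libraries, PBS replicate 1 and EnzR EVs replicate 1, which had the lowest totals. The floor of 3 counts lay at 0.528 CPM in the first and 1.65 CPM in the second, and the exact two-sided 95% Poisson interval of a count of 0 reached 0.649 and 2.02 CPM.

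Pooled over mice, the levels of Nos2, Ido1 and Il10 in each group lay within the 95% Poisson intervals of the other groups. Nos2 stood at 0.173 CPM (0.0694 to 0.356) in PBS mice, 0.31 (0.142 to 0.588) in EnzR EV mice and 0.246 (0.127 to 0.429) in EnzR EV + HDL NP mice. Ido1 stood at 0.197 (0.0852 to 0.389), 0.275 (0.119 to 0.542) and 0.327 (0.187 to 0.532) CPM, with 11 of its 16 counts in the last group from replicate 3. Il10 stood at 0.271 (0.135 to 0.485), 0.241 (0.0968 to 0.496) and 0.205 (0.0981 to 0.376) CPM. In no comparison did all mice of one group lie on one side of the other for these genes. In a fit without the filter, over 18797 genes, the largest edgeR log2 fold change among them was 0.91 (SE 1.05, adjusted p = 1), for Ido1 between the EnzR EV + HDL NP and PBS groups. No difference in these genes was detected at this depth, and how large a difference could have been detected was not tested. The intervals cover counting error only, and reads carry no molecular identifiers.

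**Figure D3:**
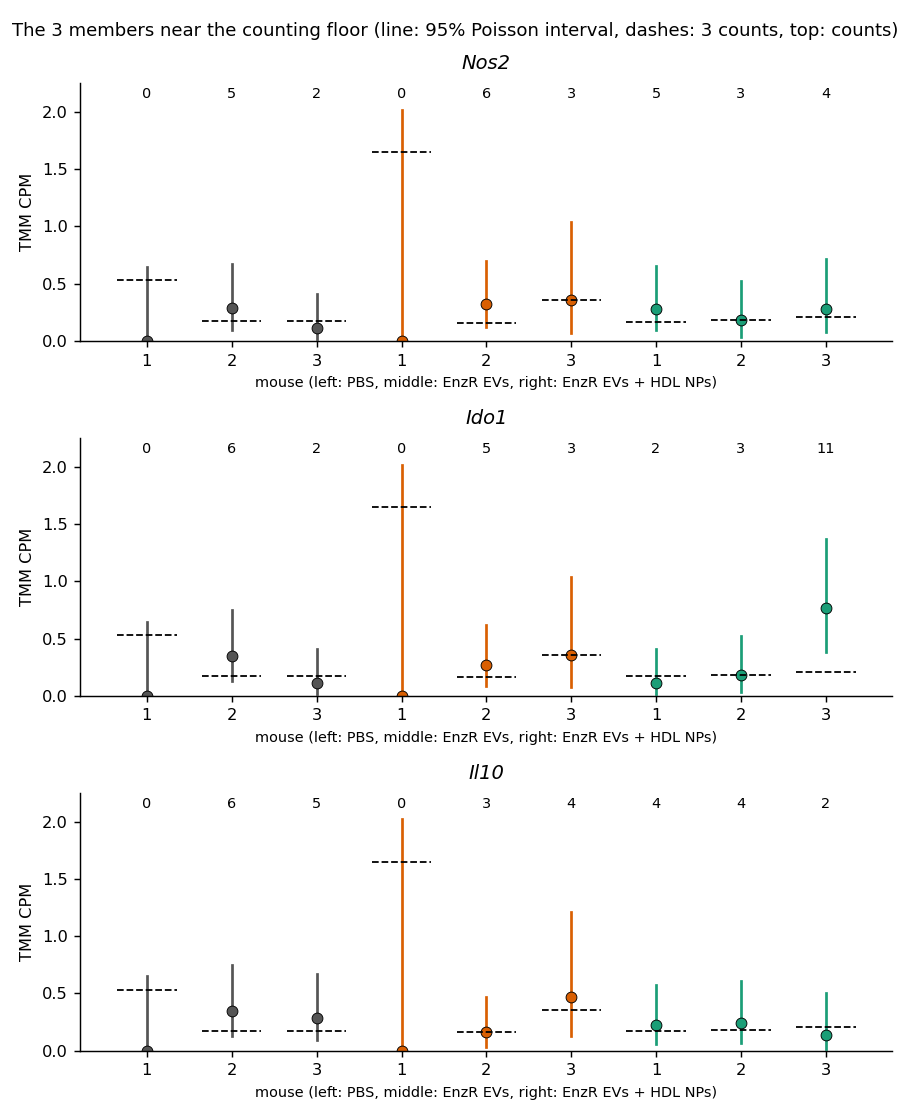
TMM CPM of Nos2, Ido1 and Il10 in each library (points), with exact 95% Poisson intervals (lines), the level of 3 counts (dashes) and the counts themselves (digits at the top). No library exceeds 11 counts, and the 2 libraries without counts have the highest floors, 0.528 and 1.65 CPM.

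The secreted factors Tgfb1 and Vegfa were well above the floor. Tgfb1, the latent cytokine TGF-β1 (chromosome 7, 25687002 to 25705077, plus strand), was at 120, 87.8 and 80.7 CPM in PBS mice, 94.4, 87.0 and 107.7 CPM in EnzR EV mice, and 64.5, 59.3 and 90.1 CPM in EnzR EV + HDL NP mice. Mice 1 and 2 of the last group were the lowest of the series, and its mouse 3 lay within the range of the other groups. The log2 fold change was -0.43 (SE 0.21, 95% interval -0.90 to 0.045, edgeR adjusted p = 1) against PBS and -0.44 (SE 0.22, 95% interval -0.91 to 0.041, edgeR adjusted p = 0.461) against EnzR EVs. Over the alternatives the latter ranged from -0.66 without EnzR EVs + HDL NPs replicate 3, the highest mouse of that group, to -0.20 with scaling by library size alone, and its lowest adjusted p was 0.0531, from limma's voom with sample quality weights, at -0.60. After EnzR EVs alone it was 0.0057 (SE 0.22, 95% interval -0.47 to 0.48, edgeR adjusted p = 0.997).

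The 3 libraries rich in Rn45s were the 3 highest of the 9 for Tgfb1, at 94.4 to 120 CPM against 59.3 to 90.1 CPM. Without them the difference between the EnzR EV + HDL NP and PBS groups was -0.24, and without PBS replicate 1 alone it was also -0.24. Summed CPM of the 11 counted neutrophil markers was lowest in these libraries, at 30610 to 65620 against 80010 to 142700 in the other 6, and so was that of the resident macrophage markers, at 1010 to 1140 against 1150 to 1920 CPM. The part of cell makeup in the Tgfb1 levels was not tested.

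Vegfa, the angiogenic growth factor VEGF-A (chromosome 17, 46016993 to 46032369, minus strand), was at 53.7, 55.3 and 54.1 CPM in PBS mice, 79.0, 47.6 and 56.5 CPM in EnzR EV mice, and 43.1, 57.8 and 57.5 CPM in EnzR EV + HDL NP mice. The PBS mice were close together, with an SD of 0.833 CPM, and the EnzR EV mice spread on both sides of them, with an SD of 16.2 CPM. The log2 fold change was 0.15 (SE 0.21, 95% interval -0.31 to 0.61, edgeR adjusted p = 0.933) after EnzR EVs and -0.042 (SE 0.20, 95% interval -0.50 to 0.41, edgeR adjusted p = 1) after EnzR EVs with HDL NPs, each against PBS. Between the EnzR EV + HDL NP and EnzR EV groups it was -0.19 (SE 0.21, 95% interval -0.65 to 0.27, edgeR adjusted p = 0.674). This turned to 0.014 without EnzR EVs replicate 1 and to 0.14 without the libraries rich in Rn45s. With scaling by library size alone it was 0.074, where the median of all genes also moved up, from 0.033 to 0.24. The highest value, 79.0 CPM, came from EnzR EVs replicate 1, and without that library and PBS replicate 1 the EnzR EV value turned to -0.064.

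Il4ra, the chain shared by the IL-4 and IL-13 receptors (chromosome 7, 125552120 to 125579474, plus strand), was at 103.7, 118.5 and 120 CPM in PBS mice, 137.2, 152.9 and 129.3 CPM in EnzR EV mice, and 102.9, 144.8 and 103.6 CPM in EnzR EV + HDL NP mice. All 3 EnzR EV mice lay above all 3 PBS mice, and mouse 2 of the EnzR EV + HDL NP group lay within the EnzR EV range while its other 2 mice did not. The difference after EnzR EVs was a log2 fold change of 0.29 (SE 0.18, 95% interval -0.093 to 0.68, edgeR adjusted p = 0.928), with an exact permutation p of 0.10. It was positive in each alternative run, from 0.12 with scaling by library size alone to 0.36 without the libraries rich in Rn45s, and its lowest adjusted p was 0.366. With HDL NPs added, Il4ra differed from PBS by 0.037 (SE 0.17, 95% interval -0.35 to 0.42, edgeR adjusted p = 1) and from EnzR EVs by -0.26 (SE 0.18, 95% interval -0.64 to 0.13, edgeR adjusted p = 0.53). The last value was -0.46 without EnzR EVs + HDL NPs replicate 2 (edgeR adjusted p = 0.71) and -0.036 with scaling by library size alone.

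Stat3, the transcription factor downstream of IL-6, IL-10 and G-CSF receptors (chromosome 11, 100885098 to 100939540, minus strand), was at 236, 321.8 and 327.3 CPM in PBS mice, 236.5, 362.8 and 305.5 CPM in EnzR EV mice, and 327.4, 374 and 315.8 CPM in EnzR EV + HDL NP mice. All groups overlapped. Its log2 fold change was 0.034 (SE 0.20, 95% interval -0.41 to 0.48, edgeR adjusted p = 0.989) after EnzR EVs and 0.20 (SE 0.20, 95% interval -0.24 to 0.64, edgeR adjusted p = 1) after EnzR EVs with HDL NPs, and 0.17 (SE 0.20, 95% interval -0.28 to 0.61, edgeR adjusted p = 0.701) between these groups. Without PBS replicate 1 the value of 0.20 fell to 0.062, and without EnzR EVs replicate 1 the value of 0.17 fell to 0.014. Without the 3 libraries rich in Rn45s they were 0.064 and -0.10. The 3 libraries rich in Rn45s were its 3 lowest, at 236 to 305.5 CPM against 315.8 to 374 CPM in the other 6, and the part of library quality or of the marker levels given for Tgfb1 was not tested. An exon of Stat3 overlaps one of Stat5a on the opposite strand. The strand setting of the counting is not given in the sources used here, so reads of the shared stretch cannot be assigned with certainty.

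**Figure D4:**
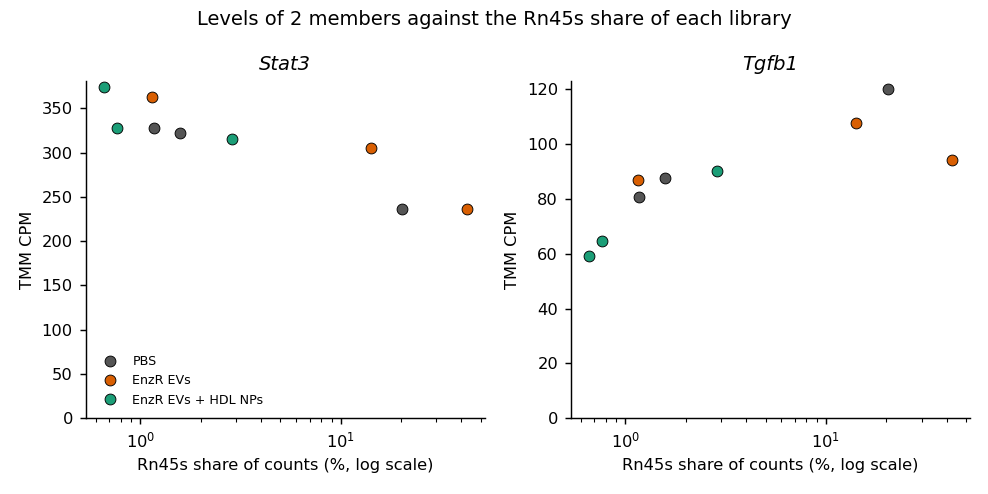
TMM CPM of Stat3 and Tgfb1 (vertical axes, from 0) against the Rn45s share of each library in percent (horizontal axes, log scale), with 1 point per mouse coloured by group. The 3 libraries above 10% are the lowest of the 9 for Stat3 and the highest for Tgfb1, and they belong to the PBS and EnzR EV groups.

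Across the 3 comparisons, 0 of the 5 tested members had an adjusted p under 0.05 by edgeR, where 0% of the 12553 tested genes did in each comparison. At an unadjusted p under 0.05, 436 genes (3.47%) passed for EnzR EVs against PBS, 268 (2.13%) for EnzR EVs with HDL NPs against PBS and 1325 (10.6%) for EnzR EVs with HDL NPs against EnzR EVs, and members passed 0, 1 (Cd274) and 0 times. DESeq2 called 14, 2 and 1 genes in the same order, none a member. With the replicate number as a block, edgeR called 1 gene for EnzR EVs against PBS, which was not a member. The EnzR EV mice were all above the PBS mice for 1 member, Il4ra, and for 3.43% of all tested genes, and all below for 0 members and 4.52% of genes. The EnzR EV + HDL NP mice were all above the PBS mice for 1 tested member, Cd274, and for 6.96% of genes, and all below for 0 members and 6.21%. Against the EnzR EV mice they were all above for 8.99% and all below for 8.58% of genes, and 0 members were in either set.

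The median log2 fold change of the 5 tested members was 0.15 for EnzR EVs against PBS, 0.037 for EnzR EVs with HDL NPs against PBS and -0.19 for EnzR EVs with HDL NPs against EnzR EVs. The medians of all tested genes were -0.027, -0.0072 and 0.033. By sign of the estimate alone, 5, 3 and 2 of the 5 were positive, where 46.5%, 48.9% and 52.8% of all tested genes were. After EnzR EVs the signs of Tgfb1, Vegfa and Stat3 turned when libraries were scaled by size alone. That scaling also moved the median of all tested genes from -0.027 to -0.18, so these turns are not particular to the members. The comparisons share groups, so their values are set side by side and not related to one another.

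**Figure D5:**
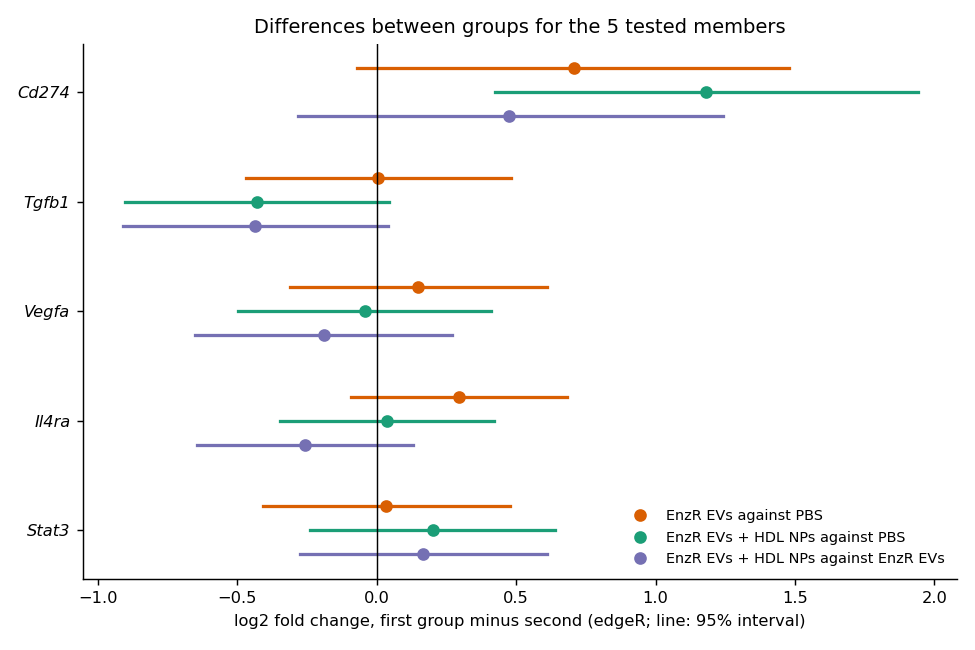
Log2 fold changes (horizontal axis) of the 5 tested members in the 3 comparisons, with edgeR estimates as points and 95% intervals as lines. The interval of Cd274 between the EnzR EV + HDL NP and PBS groups, 0.42 to 1.94, is the only one of the intervals that leaves out 0, and no adjusted p is under 0.05.

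Genes that work with the members were followed as lists. No gene of any list passed the adjusted threshold by edgeR in any comparison, and the genes named here are among the 2 with the smallest unadjusted p in their list in a comparison. Of 22 genes of arginine transport, arginine use and polyamine synthesis, 16 were tested. Their median log2 fold change was 0.098 for EnzR EVs against PBS and -0.18 for EnzR EVs with HDL NPs against PBS. For EnzR EVs with HDL NPs against EnzR EVs it was -0.21. In that last comparison 2 of the 16 genes had an unadjusted edgeR p under 0.05, beside 10.6% of all tested genes. Without the 3 libraries rich in Rn45s the medians were -0.12, -0.11 and 0.025, so the first and the last turned sign. The 2 genes were Gatm, which transfers the amidino group of arginine to glycine, at 55.1 ± 3.11 against 73.2 ± 9.37 CPM (SD, n = 3), and Azin1, the antizyme inhibitor that protects ornithine decarboxylase, at 223 ± 4.79 against 370 ± 166 CPM. Both were lower in all 3 mice given HDL NPs than in the EnzR EV mice. Of 15 genes of tryptophan and kynurenine metabolism, 12 were tested, with medians of -0.046, -0.055 and -0.063 in the same order, and 0.035, -0.04 and -0.042 without those libraries. The single gene with an unadjusted edgeR p under 0.05 was Slc7a5, an amino acid transporter, for EnzR EVs with HDL NPs against EnzR EVs. In that comparison 10.6% of all tested genes had such a p. Slc7a5 was at 6.93 ± 1.31 CPM in the EnzR EV + HDL NP group against 17.5 ± 9.3 CPM in the EnzR EV group.

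The interleukin receptor and JAK-STAT list held 36 tested genes of 38. Il10ra, the ligand-binding chain of the IL-10 receptor, was at 70 ± 7.73 CPM in EnzR EV mice, below all PBS mice at 109 ± 11.1 CPM and below all EnzR EV + HDL NP mice at 96.7 ± 3.62 CPM (SD, n = 3). The log2 fold changes were -0.64 (SE 0.15, edgeR adjusted p = 0.928) and 0.46 (SE 0.15, edgeR adjusted p = 0.461). Jak3, the kinase of the common γ chain, was at 52.2 ± 16.8 CPM in EnzR EV mice and at 18.5 ± 2.33 CPM with HDL NPs. Stat2, which transmits type I interferon signals, was at 45.1 ± 5.53 CPM in PBS mice and at 74.7 ± 10.3 CPM in EnzR EV + HDL NP mice, without overlap. Over this list the medians were 0.039, -0.02 and -0.031 in the order of comparisons used above. An unadjusted edgeR p under 0.05 was reached by 5, 1 and 5 of its 36 tested genes, beside 3.47%, 2.13% and 10.6% of all tested genes. Without the libraries rich in Rn45s the medians were 0.026, 0.023 and 0.011.

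Of 28 checkpoint ligands, receptors and costimulators other than Cd274, 24 were tested, with medians of -0.14, -0.044 and 0.25. Nt5e, the ecto-enzyme CD73 that makes adenosine, was at 58.3 ± 25.1 CPM in PBS mice, 30.1 ± 14.6 CPM in EnzR EV mice and 56.8 ± 12.1 CPM in EnzR EV + HDL NP mice. Btla, an inhibitory receptor, was at 16.2 ± 2.71 CPM in EnzR EV mice and 23.7 ± 6.32 CPM in EnzR EV + HDL NP mice. Without the libraries rich in Rn45s the medians of this list were 0.013, -0.068 and 0.01.

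In the TGF-β list, 24 of 28 genes were tested and the medians were -0.17, -0.092 and 0.097, or -0.13, -0.068 and 0.13 without the libraries rich in Rn45s. Tgfbr2, the type II receptor that binds the ligand, was at 75.9 ± 5 CPM in EnzR EV mice, below all PBS mice at 97.4 ± 3.64 CPM. Of all tested genes, 4.52% lay below in this way. Smad6, an inhibitory Smad, was at 1.92 ± 1.67 CPM in EnzR EV mice and 0.302 ± 0.222 CPM with HDL NPs. These levels are near the floor of 3 counts, which was 0.169 to 0.21 CPM in the libraries with HDL NPs and 1.65 CPM in EnzR EVs replicate 1, and no difference is read from them. Smad2, a receptor-activated transducer, was at 80.4 ± 4.34 CPM in EnzR EV mice and 103 ± 6.45 CPM with HDL NPs. In the VEGF and hypoxia list, 24 of 27 genes were tested, with medians of -0.027, -0.16 and -0.091. Without those libraries they were -0.039, -0.068 and 0.061, the last with its sign turned. Slc2a1, the glucose transporter GLUT1, was at 42.3 ± 18 CPM in EnzR EV mice and 22.4 ± 0.726 CPM with HDL NPs, and Ldha, lactate dehydrogenase A, was at 627 ± 341 and 275 ± 28.2 CPM, both without overlap. In that comparison 8.58% of all tested genes lay below without overlap. An unadjusted edgeR p under 0.05 was reached by 3 of the 24 tested genes of this list, beside 10.6% of all tested genes.

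Of 36 other genes linked to suppressive myeloid cells, 34 were counted and tested. The estimates were positive for 5 of 34 after EnzR EVs against PBS (median -0.24), for 20 of 34 after EnzR EVs with HDL NPs against PBS (median 0.086) and for 27 of 34 between these groups (median 0.34), beside 46.5%, 48.9% and 52.8% of all tested genes. Without the 3 libraries rich in Rn45s they were positive for 15, 11 and 13 of 34 (medians -0.057, -0.089 and -0.07), with 1 EnzR EV library left. Ptgs2, the prostaglandin synthase COX-2, was at 111 ± 16.6 CPM in PBS mice, 55.2 ± 8.52 CPM in EnzR EV mice, below all others, and 106 ± 24.9 CPM in EnzR EV + HDL NP mice. Its log2 fold change after EnzR EVs was -0.998 (SE 0.22, edgeR adjusted p = 0.928), and the change on adding HDL NPs was 0.93 (SE 0.22, edgeR adjusted p = 0.461). Prok2, the granulocyte-derived factor Bv8, was at 43.1 ± 40.1 CPM in EnzR EV mice and 4.83 ± 2.14 CPM with HDL NPs. At an unadjusted edgeR p under 0.05, 0 genes were higher and 4 lower, then 0 and 2, then 3 and 1, in the same order of comparisons. The shares of all tested genes were 3.47%, 2.13% and 10.6%. The 2 lower genes against PBS with HDL NPs were Trem2, at 4.33 ± 1.03 against 11.1 ± 7.65 CPM, and Cxcl2, at 39 ± 16 against 67.5 ± 11.3 CPM, both without overlap.

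The ranges of the summed myeloid markers overlapped between the 3 groups. Summed CPM of 11 neutrophil markers ranged over 54400 to 112000 in PBS mice, 30600 to 121000 in EnzR EV mice and 80000 to 143000 in EnzR EV + HDL NP mice. The 10 monocyte markers summed to 3410 to 3990, 1990 to 3420 and 2850 to 3950 CPM, and the 12 resident macrophage markers to 1140 to 1920, 1010 to 1180 and 1150 to 1240 CPM. Both of these sums, and those of the B and plasma cell, erythroid and platelet markers, were lower in the EnzR EV mouse than in the PBS mouse of equal number in 3 of 3 cases. The sums of the other lists went both ways, and the pairing by number is a hint from the data only. The 12 eosinophil, basophil and mast cell markers summed to 2290 to 3040 CPM in PBS mice, 2460 to 3510 CPM in EnzR EV mice and 1580 to 3750 CPM in EnzR EV + HDL NP mice. Sums of unlike lists do not give shares of cells and are not compared with one another. The sums of the other lists were at most 35.6 CPM for 9 B and plasma cell markers, 90.5 CPM for 12 T and NK cell markers, 122 CPM for 10 dendritic cell markers, 85.4 CPM for 10 erythroid markers, 115 CPM for 10 stromal and endothelial markers and 224 CPM for 8 platelet markers. Of these lists, 3 erythroid genes, the hemoglobin genes Hbb-b1, Hba-a1 and Hba-a2, were at 0 in all libraries. The erythroid sum therefore rests on the other genes of its list, and whether hemoglobin RNA was absent or went uncounted was not tested. The part of cell makeup in the members' levels was not tested either.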

How the data were processed

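Stranded total RNA libraries, rRNA-depleted and made from 200 ng of RNA, were sequenced as single-end 75 bp reads. The files deposited by the authors hold raw counts of reads for each gene, made with cutadapt 1.13, STAR and HTSeq 0.6.1p1 on the UCSC mm10 annotation; the counts carry no normalization, and 0 rows lacked a gene name. Groups and replicate numbers came from the sample labels, and 0 libraries were unmapped. The members and lists were chosen with earlier results of these data known, 2 further members are not reported here, and the lists hold 295 genes, of which 291 were counted.

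Differences were tested with edgeR 4.0.16 under R 4.3.3 (TMM, default filter on low counts, robust quasi-likelihood fit to 9 libraries, Benjamini-Hochberg adjustment over 12553 genes, threshold 0.05). Log2 CPM used a prior count of 2. In each list and comparison, the 2 tested genes with the smallest p were eligible to be named. For members more variable than the median tested gene, the 2 genes of closest pattern were also named. DESeq2 1.42.0 and limma 3.58.1 served as alternatives, with other normalizations, filters and fits, and with libraries left out. Libraries rich in Rn45s were left out together after seeing the data. On simulated data for EnzR EVs against PBS, 12553 genes with 200 changed, edgeR recovered 72% with 1.37% of calls false. The planted changes were all larger than any estimate for a tested member, and no shift linked to Rn45s or cell makeup was planted. That share therefore does not say how often changes of the members' size would be found. The closest pair of libraries, PBS replicates 2 and 3, had a chi-square per gene of 4.65 and was not a duplicate. Each library is 1 mouse, and no batch is named. Deviations from the group means correlated between same-numbered PBS and EnzR EV mice by 0.473, 0.492 and 0.131, all over 0.1, so the numbers were taken to pair these groups, as a hint from the data and not the design. Mice of unlike number were also over 0.1 in 2 cases, PBS replicate 3 with EnzR EVs replicate 2 at 0.429 and PBS replicate 2 with EnzR EVs replicate 3 at 0.156. PBS replicate 1 and EnzR EVs replicate 1 were both rich in Rn45s and lowest in total, and replicates 2 of both groups were low in Rn45s. Pairing and shared library quality therefore cannot be told apart here. In the other comparisons at least 1 pair was under 0.1, and the numbers were not taken as pairs. Motifs and lengths were read with Python 3.11.15 and pandas 2.3.3, and figures drawn with matplotlib 3.10.9.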

Additional observations from a re-analysis of the deposited data

How the results depend on the processing

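By edgeR, 0 genes were called in each comparison. For EnzR EVs against PBS, 14 were called by DESeq2, 1990 by voom with sample quality weights, 1 with no filter on low counts, 1 with the replicate block, 0 to 2 with each library left out in turn (2 without PBS replicate 1), 5 without PBS 1 and EnzR EVs 1, and 10 without the 3 libraries rich in Rn45s. For EnzR EVs with HDL NPs against PBS, 2 were called by DESeq2 and 10 with quality weights. For EnzR EVs with HDL NPs against EnzR EVs, 1 was called by DESeq2, 653 with quality weights, 1 from the 6 libraries alone, 0 to 1 leaving out single libraries (1 without PBS replicate 1), 1 without PBS 1 and EnzR EVs 1, and 1 without the libraries rich in Rn45s. The replicate block changed no call of a member. Of the 5 tested members, 0 were called under any alternative.

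Of 315 alternative values for the 5 tested members, 290 kept their direction and side of the threshold and 25 turned sign; the cause was not tested. For EnzR EVs against PBS, library size alone gave -0.16 for Tgfb1, -0.067 for Vegfa and -0.12 for Stat3, where the median of all genes moved from -0.027 to -0.18. Stat3 was -0.069 with quality weights and Tgfb1 -0.028 with no filter. Vegfa was -0.064 without the 2 smallest libraries and -0.20 without those rich in Rn45s. Leaving out single libraries gave -0.098 to 0.19 for Tgfb1, -0.059 to 0.33 for Vegfa and -0.11 to 0.18 for Stat3. For EnzR EVs with HDL NPs against PBS, Vegfa was 0.0074 with library size alone. Il4ra was -0.025 without the 2 smallest libraries and -0.026 without those rich in Rn45s. Single libraries left out gave -0.12 to 0.096 for Vegfa and -0.15 to 0.13 for Il4ra. For EnzR EVs with HDL NPs against EnzR EVs, leaving out the libraries rich in Rn45s gave -0.015 for Cd274, 0.14 for Vegfa and -0.10 for Stat3. Vegfa was 0.074 with library size alone, where the median of all genes moved from 0.033 to 0.24, and 0.015 without the 2 smallest libraries. Single libraries left out gave -0.37 to 0.014 for Vegfa. Where 1 EnzR EV library remained, it was assumed to vary like the other groups. The depth of PBS replicate 1 and EnzR EVs replicate 1 limits what can be said of Nos2, Ido1 and Il10.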
